A study of Mus musculus with 12 samples.

Results

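The genes described here are 9 genes of gastric and intestinal epithelium, Ctse, Prap1, Lgals4, Rbp2, Pdx1, Agr2, Tff1, Tff2 and Tff3, out of 19937 mouse genes measured. Each was read from the 1 array row annotated to its symbol alone, and the values are log2 intensities. The genes were chosen from known gut genes with the group values of these same 12 arrays in view, so their differences between groups are given as descriptions, without a test. In digestive epithelium, trefoil factors (Tff1 to Tff3) are small secreted peptides that accompany mucus, cathepsin E (Ctse) is an aspartic protease of gastric surface cells, and Pdx1 is a homeobox factor of the duodenum, gastric antrum and pancreas. The liver and bile ducts arise from the same foregut endoderm as the stomach and duodenum. Yap is the transcriptional coactivator that the Hippo pathway restrains, and it acts on genes through TEAD factors.

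Affymetrix MoGene 1.0 ST arrays were hybridized with amplified total RNA from mouse liver cells of C57Bl6 background, 3 arrays in each of 4 groups. Yap-on organoids had Yap switched on for 3 weeks in the animal and were then cultured for 2 weeks with doxycycline, which kept it on. Yap-off organoids had the same 3 weeks in the animal and were cultured for 2 weeks without doxycycline, with Yap off. Wild-type organoids were likewise grown for 2 weeks, and uninduced hepatocytes were YFP-positive liver cells collected by flow sorting without Yap induction. The labels do not state the promoter driving Yap, the cell type in which it was switched on or whether replicates are separate animals, so the p-values cover array-to-array spread that may be technical.

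The libraries labelled wild-type organoid and uninduced hepatocyte did not hold together as groups. Lyz2, a macrophage lysozyme, was at 11.56, 6.19 and 12.16 in wild-type organoids 1 to 3 and at 5.28, 12.04 and 6.30 in uninduced hepatocytes 1 to 3. Krt19, a keratin of bile ducts, took the opposite arrangement, at 4.28, 9.28 and 4.92 in the wild-type organoids and at 10.21, 4.95 and 9.82 in the hepatocytes. Cyp2e1, a hepatocyte marker, was at 10.03, 2.74 and 9.90 in the wild-type organoids and at 3.16, 10.14 and 3.22 in the hepatocytes. In these genes wild-type organoid 2 was thus like hepatocytes 1 and 3, and hepatocyte 2 like wild-type organoids 1 and 3. Alb, another hepatocyte marker, was between 11.53 and 12.33 on all arrays of both groups. Which libraries are true to their label was not tested, and levels of the 9 genes in these 2 groups are given array by array. Yap1 itself was at 7.45, 7.40 and 7.28 in the Yap-on organoids, at 7.35, 7.21 and 6.88 in the Yap-off organoids, at 6.70, 7.51 and 5.97 in the wild-type organoids and at 7.20, 4.93 and 7.07 in the hepatocytes. Whether the probes of mouse Yap1 detect the induced Yap was not tested. Ankrd1, a well-known target of Yap and TEAD, was lower in the Yap-on organoids, at 7.68, 7.95 and 8.57, than in the Yap-off organoids, at 9.46, 9.13 and 9.39, which goes against the order of the labels. It was at 3.39, 10.19 and 3.47 in the wild-type organoids and at 10.40, 3.46 and 10.07 in the hepatocytes. The group names below are those of the labels. Xist, the RNA that coats a silenced X in female cells, was between 3.14 and 3.20 in the Yap-on and between 8.49 and 9.20 in the Yap-off organoids, so Yap state and sex cannot be told apart between these 2 groups. It was at 3.30, 3.14 and 3.26 in the wild-type organoids, close to the Yap-on arrays, and at 8.82, 3.0 and 9.0 in the hepatocytes.

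Ctse, Prap1, Lgals4, Rbp2 and Pdx1 were high on all 3 Yap-on arrays and lower on every other array, and Tff3 was highest in the Yap-off organoids. Tff1 was clearly raised on 1 Yap-on array only, and Tff2 and Agr2 stayed at the low end of the scale on all 12 arrays. Of the 9 genes, 6 had every Yap-on array above every Yap-off array, 2 had every Yap-on array below, and 1 overlapped. Over all 19937 genes these shares were 24.6% above and 28.9% below. Because the members were chosen with these values known, nothing is read from the counts.

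**Figure D1:**
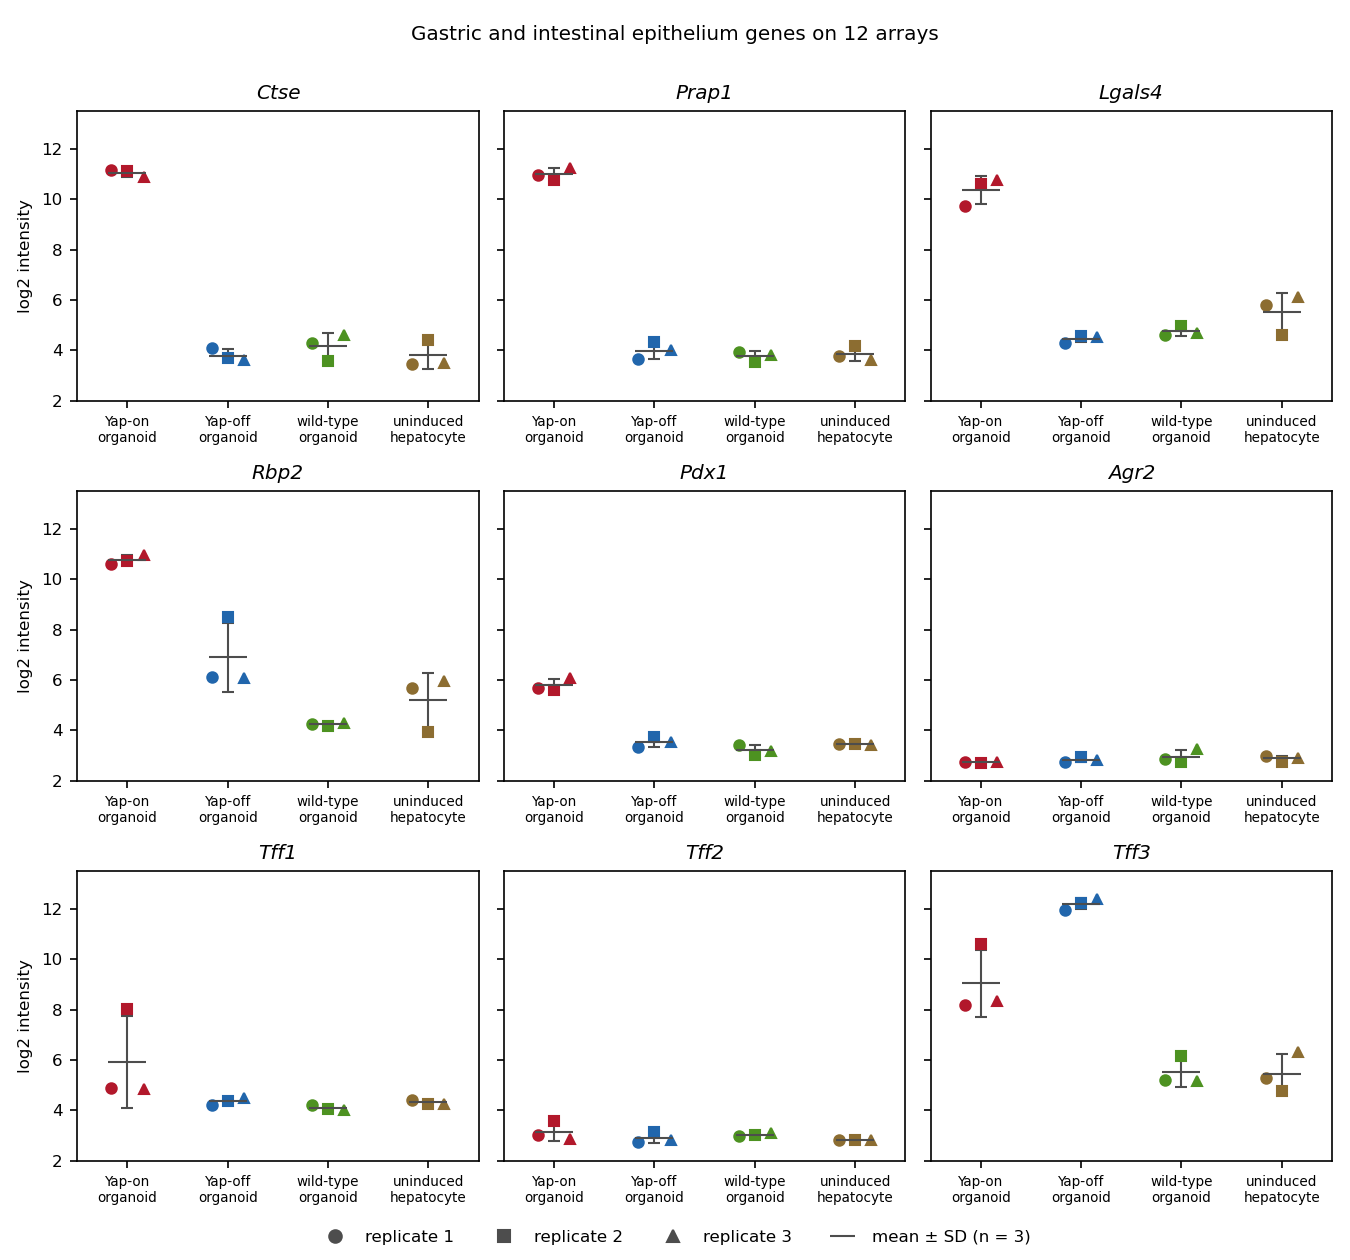
Log2 intensity of the 9 genes (1 panel each, same vertical axis) in the 4 groups, with a point for each array, its shape giving the replicate number, and the mean ± SD (n = 3). Ctse, Prap1, Lgals4, Rbp2 and Pdx1 are highest in the Yap-on organoids, Tff3 is highest in the Yap-off organoids (11.97 to 12.41), and Tff1 reaches 8.04 on the Yap-on 2 array alone.

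Cathepsin E had the largest mean difference of the 9 between Yap-on and Yap-off organoids. Ctse was at 11.17, 11.11 and 10.88 in the Yap-on organoids, against 4.07, 3.68 and 3.60 in the Yap-off organoids. In the wild-type organoids it was at 4.30, 3.56 and 4.59, and in the uninduced hepatocytes at 3.47, 4.39 and 3.51. All 3 Yap-on arrays lay far above the other 9, while the other groups overlapped one another. The Yap-on mean of 11.05 ± 0.15 (SD, n = 3) exceeded the Yap-off mean of 3.79 ± 0.25 by 7.27 on the log2 scale, a 154-fold difference in intensity. The Yap-off arrays lay below the median gene of their array, which was between 4.14 and 4.34 over the 12 arrays, so this fold depends on the background of the array. Among the low values, those of Ctse were highest (4.30, 4.59 and 4.39) in wild-type organoids 1 and 3 and hepatocyte 2, the arrays with high Lyz2. Ctse is also known from cells of the immune system, and the part of such cells in these small differences was not tested.

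Prap1, a proline-rich acidic protein secreted by the intestinal epithelium, followed the same order. It was at 10.98, 10.76 and 11.25 in the Yap-on organoids, against 3.65, 4.31 and 3.99 in the Yap-off organoids. The wild-type organoids had 3.94, 3.55 and 3.81 and the hepatocytes 3.75, 4.17 and 3.61. No Yap-on array came within 6.45 log2 units of a Yap-off array, and the 3 remaining groups could not be ordered beyond their spread. The Yap-on mean of 10.99 ± 0.25 (SD, n = 3) was 129 times the Yap-off mean of 3.98 ± 0.33, when both are taken back to intensities. On 2 of the 3 Yap-off arrays Prap1 was below the median gene, so this fold too depends on the background.

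Rbp2, the cellular retinol-binding protein of enterocytes that takes up dietary vitamin A, was the one gene of this kind with an intermediate level in the Yap-off organoids. Its values were 10.62, 10.74 and 10.98 in the Yap-on organoids, against 6.11, 8.48 and 6.09 in the Yap-off organoids. It was at 4.25, 4.17 and 4.27 in the wild-type organoids and at 5.66, 3.93 and 5.96 in the hepatocytes. Every Yap-off array was above every wild-type and hepatocyte array, the closest pair being 0.13 log2 units apart. The Yap-on mean of 10.78 ± 0.18 (SD, n = 3) was higher than the Yap-off mean of 6.89 ± 1.37 by 3.89, and without the Yap-off 2 array the difference was 4.68. Only 5 of 19937 genes stood at least 2 log2 units higher on the Yap-off 2 array than on both Yap-off 1 and 3, and Rbp2 was the third of them by that excess (2.37), after Mir103-2 and Mir18 and before Rfxap and Orai2. Of 96 measured genes of the wider gut list described below, 0 had an excess of that size on the Yap-off 2 array. Prap1 and Lgals4 were also highest there among the Yap-off arrays, but by far less. Prap1 was at 4.31, against 3.65 and 3.99 on Yap-off 1 and 3, and Lgals4 at 4.56, against 4.29 and 4.52.

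Promoter sequence for the members was available for 5 of the 9 (Prap1, Lgals4, Pdx1, Rbp2 and Agr2), from RefSeq on build GRCm38.p6, and was searched on both strands in the 250 bases before the gene start. The 2 windows below are shown because both genes were among the highest members in the Yap-on organoids and because both hold the core letters of a TEAD motif (GGAATG, reverse CATTCC) and of a GATA motif (AGATAA, reverse TTATCT), which are in capitals. The TEAD letters begin at base -241 in Prap1 and at base -246 in Rbp2, counted from the start of the gene, and the GATA letters at bases -32 and -43. The motifs do not overlap each other. The windows are chr7:140093146-140093395 (plus strand) for Prap1 and chr9:98490287-98490536 (plus strand) for Rbp2, each written 5′ to 3′.
Prap1: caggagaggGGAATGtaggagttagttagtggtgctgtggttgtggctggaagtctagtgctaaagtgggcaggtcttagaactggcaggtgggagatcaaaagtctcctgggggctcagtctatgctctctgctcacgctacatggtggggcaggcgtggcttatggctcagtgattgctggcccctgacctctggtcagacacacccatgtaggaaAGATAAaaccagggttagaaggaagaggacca
Rbp2: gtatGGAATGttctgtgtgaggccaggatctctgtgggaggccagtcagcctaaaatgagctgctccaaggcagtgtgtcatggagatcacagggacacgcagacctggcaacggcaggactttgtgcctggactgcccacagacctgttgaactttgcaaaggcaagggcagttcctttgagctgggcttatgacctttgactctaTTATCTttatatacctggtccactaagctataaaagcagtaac
Of all 32851 promoter windows of that length in the table, 12.6% held the TEAD letters and 9.99% the GATA letters. Neither set of letters was in the windows of Lgals4, Pdx1 or Agr2, and the letters TTTATG (reverse CATAAA) of CDX factors, found in 10.8% of all windows, were in that of Agr2 alone. The motifs were picked after the windows had been seen, and a match is a description of letters, not of binding.

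Lgals4, a galectin of the intestinal and gastric epithelium that binds sugars at the apical surface, was at 9.75, 10.60 and 10.75 in the Yap-on organoids. It was at 4.29, 4.56 and 4.52 in the Yap-off organoids. The wild-type organoids had 4.61, 4.97 and 4.70, and the hepatocytes 5.79, 4.61 and 6.10. The Yap-on arrays were again apart from all others, and the Yap-off arrays were the lowest of the 12, below every wild-type and hepatocyte array. Yap-on organoids averaged 10.37 ± 0.54, against 4.46 ± 0.15 for Yap-off organoids (SD, n = 3 each), a log2 difference of 5.91. Among the uninduced libraries Lgals4 was highest in hepatocytes 1 and 3 and wild-type organoid 2, which had high Krt19. Mouse Lgals6 is a close copy of Lgals4, and whether the probes separate the copies was not tested.

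Pdx1, the homeobox factor, differed by less but as evenly. It was at 5.67, 5.60 and 6.07 in the Yap-on organoids, against 3.35, 3.71 and 3.53 in the Yap-off organoids. The wild-type organoids had 3.42, 3.00 and 3.16 and the hepatocytes 3.47, 3.46 and 3.43. The Yap-on mean of 5.78 ± 0.25 (SD, n = 3) was 4.76 times the Yap-off mean of 3.53 ± 0.18 on the intensity scale. The 9 arrays without sustained Yap were all below the median gene of their array. Pdx1 is best known from the pancreas. Of 12 other measured genes of a pancreas list, 0 rose and 4 fell from Yap-off to Yap-on organoids. Bhlha15 fell by 1.11, Cpa1 by 0.45, Ptf1a by 0.43 and Nkx2-2 by 0.40 on the log2 scale. Of all genes 19.1% were called higher and 12% lower at an adjusted p under 0.05 (limma). The means of Cpa1, Ptf1a and Nkx2-2 were 3.88 or lower in both groups. No mean of the list was above 4.91 in either group, so nothing about Pdx1 is read from these counts.

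The 3 trefoil factor genes, which lie next to one another on chromosome 17 in the order Tff3, Tff2, Tff1, had 3 different patterns. Tff3, the trefoil factor of intestinal goblet cells and also of bile ducts, was at 8.19, 10.59 and 8.34 in the Yap-on organoids. It was higher still in the Yap-off organoids, at 11.97, 12.25 and 12.41. It was at 5.20, 6.15 and 5.15 in the wild-type organoids and at 5.27, 4.76 and 6.32 in the hepatocytes. The order was thus Yap-off, Yap-on and then the uninduced libraries, with no overlap between the first 2 or between either and the rest, while wild-type organoids and hepatocytes overlapped. The Yap-on mean of 9.04 ± 1.34 (SD, n = 3) was lower than the Yap-off mean of 12.21 ± 0.22 by a log2 difference of -3.17, and the difference was -3.95 without the Yap-on 2 array. Relative to the wild-type organoids (5.50 ± 0.56), Tff3 was higher by 3.54 in the Yap-on and by 6.71 in the Yap-off organoids, both set against the same 3 arrays.

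Tff1, the trefoil factor of gastric surface cells, was at 4.89, 8.04 and 4.83 in the Yap-on organoids, against 4.22, 4.36 and 4.48 in the Yap-off organoids. It was at 4.22, 4.06 and 3.99 in the wild-type organoids and at 4.42, 4.24 and 4.26 in the hepatocytes. All 3 Yap-on arrays were above the other 9, but the Yap-on 2 array alone set the size: the log2 difference between Yap-on and Yap-off organoids was 1.57 with it and 0.51 without it. Tff2, which is secreted by gastric neck cells, was at 3.01, 3.56 and 2.85 in the Yap-on organoids and at 2.75, 3.13 and 2.82 in the Yap-off organoids. The wild-type organoids had 2.96, 3.00 and 3.10 and each hepatocyte array 2.83. Tff2 was below the median gene on every array, its groups overlapped, and its highest value was on the Yap-on 2 array.

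**Figure D2:**
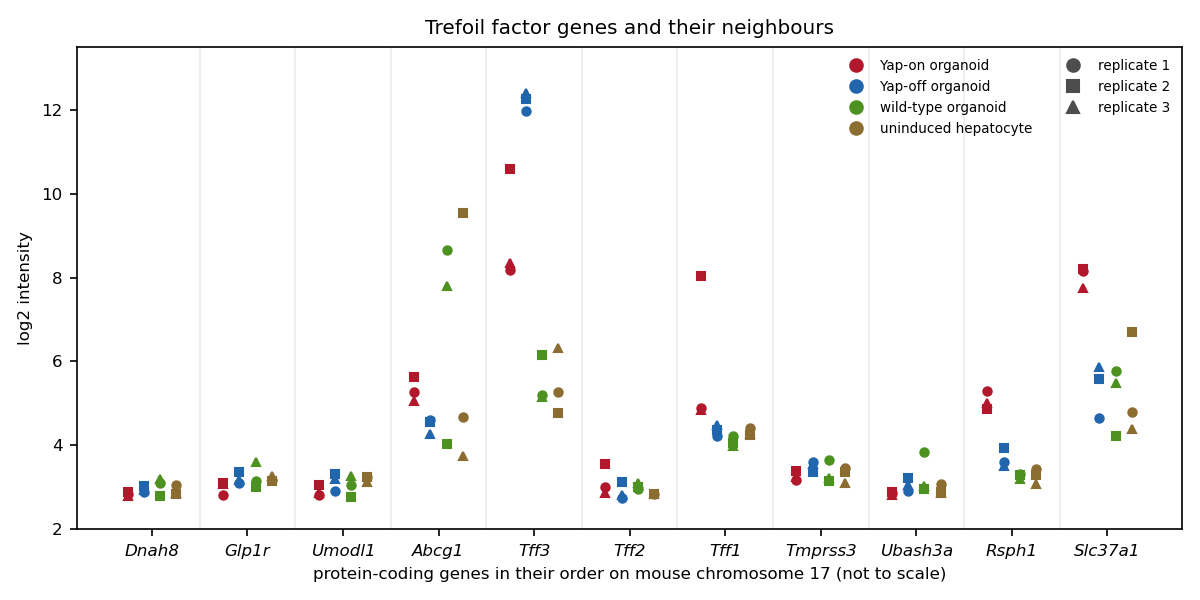
Log2 intensity of Tff3, Tff2 and Tff1 and of the 4 protein-coding genes on either side, in their order on chromosome 17, with a point for each of 12 arrays coloured by group and shaped by replicate number. Tff3 and Tff1 stand out on the Yap-on 2 array (10.59 and 8.04), where Tmprss3, next to Tff1, is at 3.38.

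The Yap-on 2 array was otherwise close to its replicates. Of 19937 genes, 3 were at least 2 log2 units higher on it than on both Yap-on 1 and 3, namely Tff1 (3.15 above the higher of the others), Ly6k (2.79) and Tff3 (2.25). Tff2 was 0.55 above and ranked 62nd of 19937 by the same measure. The corresponding numbers of genes were 2 for Yap-on 1 and 5 for Yap-on 3, with no member among them. The threshold of 2 was set after the values were seen. Nearby genes did not share the excess: Abcg1, on the far side of Tff3, was at 5.27, 5.62 and 5.05 in the Yap-on organoids, and Tmprss3 at 3.18, 3.38 and 3.25. Ctse, Prap1, Lgals4, Rbp2 and Pdx1 were not above both other arrays there.

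**Figure D3:**
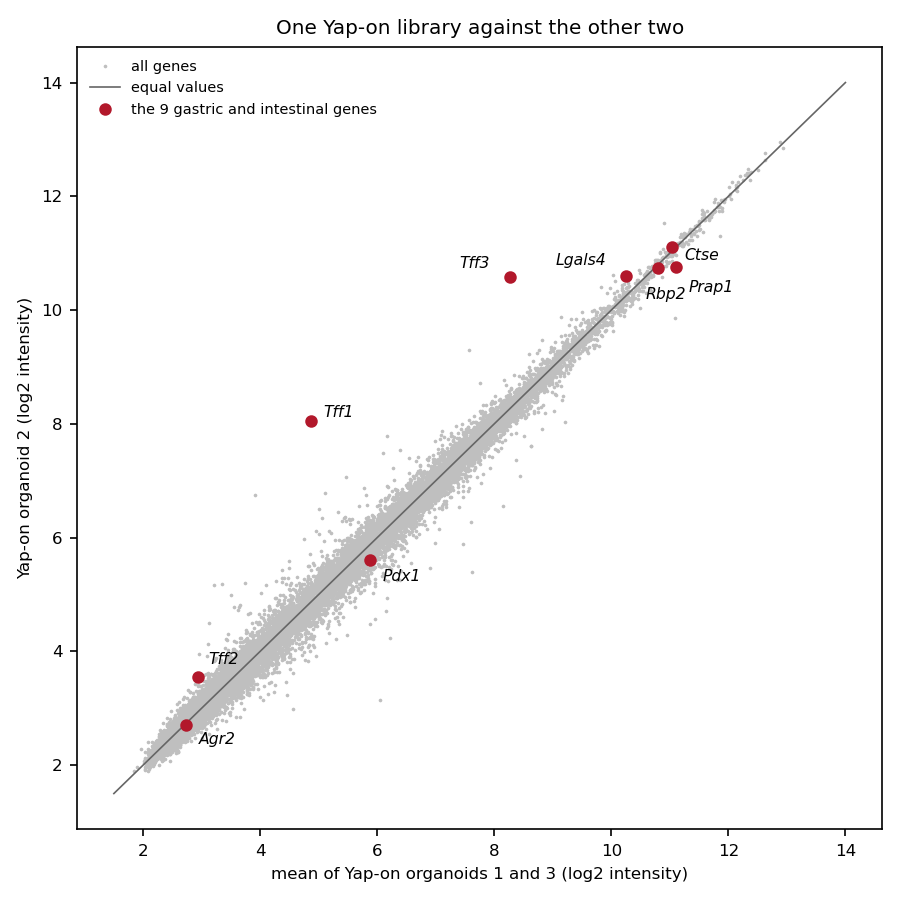
Log2 intensity of 19937 genes on the Yap-on 2 array (vertical) against the mean of Yap-on 1 and 3 (horizontal), with the line of equal values and the 9 gastric and intestinal genes in red. Tff1 and Tff3 lie far above the line, at 8.04 and 10.59, and the other members lie near it.

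Agr2, a protein disulfide isomerase that goblet cells need to make mucin, was not detectably raised. It was at 2.72, 2.70 and 2.74 in the Yap-on organoids, against 2.75, 2.94 and 2.80 in the Yap-off organoids. The wild-type organoids had 2.87, 2.72 and 3.24 and the hepatocytes 2.98, 2.75 and 2.90. All 12 values were below the median gene of their array. The Yap-on arrays were just below the Yap-off arrays, with a mean difference of -0.11 that turned to 0.03 after a further quantile normalization. Of the 9 members, Tff2 and Agr2 were among the 30% of genes with the lowest mean over the 12 arrays, and the other 7 were not.

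The 5 genes highest on all Yap-on arrays were close to one another over the 12 arrays. Pearson's r was 0.992 for Ctse and Prap1, 0.990 for Prap1 and Pdx1, 0.965 for Prap1 and Lgals4 and 0.927 for Pdx1 and Rbp2. The lowest values among these 5 genes were those of Rbp2 with Ctse (0.855), Lgals4 (0.868) and Prap1 (0.897). The trefoil genes were less alike, with r of 0.789 for Tff1 and Tff2, 0.329 for Tff1 and Tff3 and 0.183 for Tff2 and Tff3. These values describe 12 arrays that share their normalization and fall into few groups, so a gene high in the Yap-on organoids alone correlates with any other of that kind. Among all named genes the 3 nearest to Ctse were Tmem40 (0.996), Tmem45b (0.995) and Pgap1 (0.995). Those nearest to Prap1 were Slc26a9, an anion transporter known from gastric epithelium (0.997), Ckmt1 (0.997) and Fam3b (0.996). Lgals4 was nearest to Mal (0.989), Prom1 (0.988) and Grhl2 (0.987), and Pdx1 to Tmprss4 (0.993), Prap1 itself (0.990) and Arhgap8 (0.990). For Rbp2 they were Fxyd3 (0.987), Nebl (0.968) and Arntl2 (0.964). Tff1 was nearest to Kcnt1 (0.959), Cldn9 (0.951) and Ly6k (0.951), each of which was highest on the Yap-on 2 array. Tff3 was nearest to Lysmd2 (0.950), Zfp750 (0.942) and C4bp (0.935). Tff2 was nearest to Krt6a (0.810), Mfsd4b3-ps (0.807) and Ly6k (0.800), which were highest, like Tff2, on the Yap-on 2 array (Ly6k at 6.75, Tff2 at 3.56). Agr2 varied so little that its nearest genes, Nat1 (0.961), Mir463 (0.960) and Klhl14 (0.958), describe values near background.

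Whether other genes of gastric and intestinal cells moved was tested on a list of 99 genes that holds none of the 9, of which 96 were measured. The list was written from general knowledge with earlier results of these arrays known, so its calls are not independent support. In the Yap-on against the Yap-off organoids 22 rose and 19 fell at an adjusted p under 0.05 (limma, 3 against 3 arrays, adjusted over all genes). Among all genes 19.1% were higher and 12% lower. The median log2 difference of the list was -0.13, against -0.08 for all genes. The increases were the larger changes: 18 of the 22, but 6 of the 19 decreases, were at least 2-fold, and 10 of the genes that fell had both group means below 4.34, the highest array median. With a further quantile normalization 21 rose and 11 fell, and with arrays centred on their median 23 rose and 16 fell. In fits without Yap-on 1, 2 or 3 there were 9 decreases each, and without Yap-off 2 there were 11, while 20 or 21 increases were called in each.

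Gastric genes rose for 6 of 20 and fell for 3 (limma), beside 19.1% of all genes higher and 12% lower. Psca, a surface antigen of gastric and other epithelia, was at 9.14, 9.59 and 9.53 in the Yap-on organoids, against 5.61, 5.76 and 5.09 in the Yap-off organoids (log2 difference 3.93, SE 0.21, adjusted p = 2.2e-05, limma). Sult1c2, a sulfotransferase, rose by 3.78 and the water channel Aqp5 by 2.92. Vsig1, an adhesion protein of gastric epithelium, rose by 1.77. Pepsinogen C (Pgc) rose by 1.48 and Atp4a, the catalytic chain of the acid pump, by 1.19, both at 5.25 or lower on every array. Atp4b, the other chain of the pump, was at 2.96, 2.94 and 3.11 in the Yap-on and at 3.07, 3.26 and 3.36 in the Yap-off organoids and was not called. The gastric mucins Muc5ac and Muc6 were not called either. Muc5ac was between 2.94 and 3.31 and Muc6 between 3.34 and 3.59 on these 6 arrays. These 3 genes were singled out after their values were seen.

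Intestinal absorptive genes went both ways, with 5 of 23 higher and 5 lower, where all genes had 19.1% higher and 12% lower. Villin (Vil1), which bundles actin in microvilli, was at 9.24, 9.12 and 8.98 in the Yap-on organoids, against 3.48, 3.88 and 4.50 in the Yap-off organoids (log2 difference 5.16, SE 0.25, adjusted p = 1.4e-05, limma). Gpa33, an intestinal surface antigen, rose by 4.07, and Fabp2, the fatty acid-binding protein of enterocytes, by 2.26. Fabp2 was at 5.82 to 6.09 in the Yap-on organoids, but also at 4.73, 3.09 and 6.06 in the wild-type organoids, against which it was not called. The peptidases Anpep and Dpp4, which also lie in the bile canaliculi of hepatocytes, had log2 differences of -4.66 and -2.08, and the microvillar cadherin Cdhr5 had one of -2.71, all called lower. All 10 hepatocyte markers fell as well, and their part in these decreases was not tested. The digestive enzymes sucrase-isomaltase (Sis) and lactase (Lct), singled out after their values were seen, were at 2.40 to 2.41 and 2.88 to 3.07 in the Yap-on organoids and at 2.39 to 2.52 and 3.06 to 3.44 in the Yap-off organoids.

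Of 19 goblet, Paneth and mucus genes 3 rose and 2 fell, near the shares over all genes (19.1% higher and 12% lower). Spink4, a secreted protein of goblet cells, was at 6.39, 7.40 and 6.70 in the Yap-on organoids, against 3.78, 4.48 and 4.23 in the Yap-off organoids (difference 2.67, SE 0.29, adjusted p = 0.00072, limma). Creb3l1, a transcription factor of secretory cells, rose by 1.42. Muc2, the intestinal mucin, was at 3.51, 3.45 and 3.45 in the Yap-on and at 3.40, 3.51 and 3.46 in the Yap-off organoids and, like the goblet cell factors Atoh1 and Spdef, was not called; these 3 were singled out after their values were seen. Enteroendocrine and tuft cell genes had no increase among 18 and 6 decreases. Of these, 1 was at least 2-fold, that of the peptide neurotensin (Nts, difference -2.70, adjusted p = 0.0047, limma). Nts was at 2.51, 2.63 and 2.69 in the Yap-on and at 6.44, 4.55 and 4.93 in the Yap-off organoids. The wild-type organoids had 2.98, 3.96 and 2.85 and the hepatocytes 3.08, 2.63 and 3.18, so Nts was high in the Yap-off organoids alone. The other genes called lower had means of 4.12 or less in both groups, below the lowest array median (4.14).

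Of 16 transcription factors and hedgehog ligands 8 were higher and 3 lower, beside 19.1% and 12% of all genes. These were the most calls of the gut lists, which were written with earlier results known, so the ranking is a description. The epithelial ETS factors Ehf and Elf3 rose by 4.75 (SE 0.10, adjusted p = 2.6e-07) and 4.18 (SE 0.22, adjusted p = 2.1e-05, limma). Gata5, a zinc finger factor of gut endoderm, was at 7.03, 7.0 and 8.03 in the Yap-on organoids, against 3.68, 3.51 and 3.91 in the Yap-off organoids (difference 3.65). Gata6 rose by 1.27, the Krüppel-like factors Klf5 and Klf4 by 1.52 and 1.12, and the gut hedgehog ligand Ihh by 2.39. Klf4 was at 6.17 to 6.30 in the Yap-on organoids, but at 6.60, 5.05 and 6.41 in the wild-type organoids. Every hepatocyte array was above the Yap-on arrays in Klf4 (7.12, 7.65 and 6.92). Gata6 was at 7.82 to 7.88 in the Yap-on organoids, beside 4.55, 7.49 and 3.89 in the wild-type organoids and 6.95, 4.46 and 7.39 in the hepatocytes. The forkhead factors Foxa3 and Foxa1, which liver also uses, had differences of -3.07 and -1.97. Foxa3 was at 6.07 to 6.35 in the Yap-on and at 9.08 to 9.58 in the Yap-off organoids. It was at 5.06, 6.69 and 5.29 in the wild-type organoids and 6.68, 4.32 and 6.82 in the hepatocytes, so the Yap-off organoids stood apart. Foxa1 was lower on every Yap-on array (3.31 to 3.42) than on all others (3.82 or higher). The intestinal master regulators Cdx1 and Cdx2, singled out after their values were seen, were not called. Cdx2 was at 3.39, 3.43 and 3.32 in the Yap-on and at 3.24, 3.24 and 3.34 in the Yap-off organoids, and Cdx1 at 4.09, 4.16 and 3.98 in Yap-on organoids, against 4.22, 4.51 and 4.61 in Yap-off organoids.

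**Figure D4:**
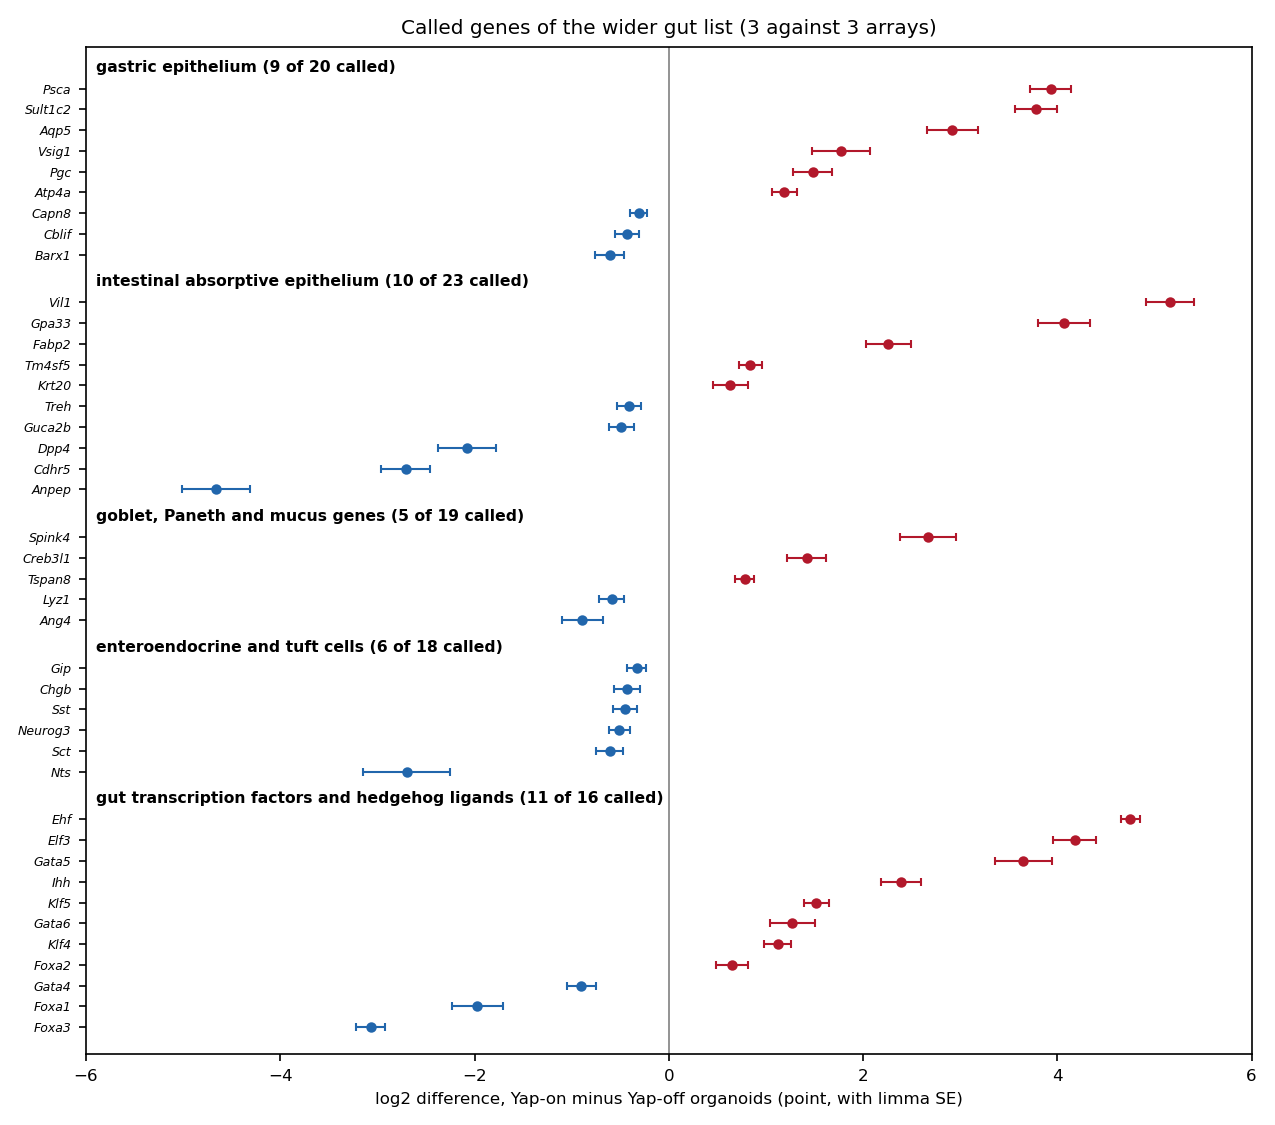
Log2 difference, Yap-on minus Yap-off organoids, with limma's SE, for the 41 called genes of the wider gut list, which holds none of the 9 members, by cell type. The increases reach 5.16 (Vil1) and the decreases -4.66 (Anpep), and the enteroendocrine genes have decreases only.

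Relatives of the members differed as well. Of 16 measured genes of the same families 6 rose and 3 fell between Yap-on and Yap-off organoids (limma), beside 19.1% of all genes higher and 12% lower. The galectin Lgals3 was higher in the Yap-on organoids by 3.55 (adjusted p = 1e-04, limma). It was at 10.34, 10.47 and 10.24 in the Yap-on and at 6.37, 7.39 and 6.63 in the Yap-off organoids. The wild-type organoids had 9.16, 9.28 and 9.34 and the hepatocytes 9.54, 11.09 and 9.43, so the Yap-off organoids were the lowest group. Lgals1, a galectin common in mesenchymal cells, had a difference of -3.06 (adjusted p = 9.8e-05, limma). Among the vitamin A carriers, Rbp7 rose by 1.46, Crabp1 had a difference of -1.28, and Rbp4, the plasma retinol carrier that hepatocytes secrete, was at 3.69, 3.53 and 3.37 in the Yap-on and at 11.53, 11.69 and 11.74 in the Yap-off organoids (difference -8.12, adjusted p = 1.2e-07, limma). Rbp2 and Rbp4 thus took opposite directions. Of the aspartic proteases related to cathepsin E, Bace2 rose by 1.41, Bace1 by 1.23, Napsa by 0.52 and Ctsd by 0.50, with adjusted p between 0.00011 and 0.044 (limma). Bace2 was at 5.46 to 5.74 in the Yap-on organoids, but at 7.85, 3.59 and 6.03 in the wild-type organoids and 3.72, 4.88 and 3.65 in the hepatocytes. Napsa was at 4.24 to 4.40 in the Yap-on organoids, but at 7.22, 3.39 and 5.97 in the wild-type organoids and 3.64, 6.35 and 3.63 in the hepatocytes.

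Markers of other cells moved with these differences, in a comparison where 19.1% of all genes were higher and 12% lower. All 10 hepatocyte markers fell, their summed intensity being 3237 to 3743 in the Yap-on and 26004 to 31375 in the Yap-off organoids, and 6 of the 10 were below the array median on every Yap-on array. Of 8 biliary markers 7 rose and none fell, with sums of 9841 to 11287 in the Yap-on and 1409 to 1853 in the Yap-off organoids. Of 10 macrophage markers 1 rose (Cd68, by 1.21) and 3 fell, namely Lyz2, C1qb and Vsig4, with log2 differences of -2.71, -1.03 and -0.84. Their sums were 186 to 203 in the Yap-on and 180 to 245 in the Yap-off organoids, with Cd68 the highest of the markers in Yap-on (mean 6.62) and Lyz2 in Yap-off organoids (mean 5.62). Of 10 stellate and fibroblast markers 3 fell and 7 were not called, and the sums of 104 to 108 in Yap-on organoids, against 366 to 411 in Yap-off organoids, rested on Reln (mean 3.51 in Yap-on, 7.85 in Yap-off organoids) and Dcn (3.31 in Yap-on, 5.51 in Yap-off organoids). Of 7 lymphoid and blood markers 5 fell, with sums of 61 to 65 in Yap-on organoids, against 86 to 87 in Yap-off organoids. All 7 were below the array median on every Yap-on array, and 6 on every Yap-off array. S100a8 had a difference of -1.13, and those of Ptprc, Cd3e, Nkg7 and Cd79a were -0.33 to -0.38. Of 10 endothelial markers 1 fell, with sums of 96 to 101 in Yap-on organoids, against 109 to 113 in Yap-off organoids, and all 10 were below the array median on each of these arrays. The part of these marker changes in the gut gene differences was not tested. In such bulk RNA, more cells of a type and more RNA per cell cannot be told apart.

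Against the wild-type organoids, 13 of the 96 listed gut genes rose in the Yap-on organoids and none fell, with 2.45% of all genes higher and 1.06% lower (limma, adjusted p under 0.05). Vil1 averaged 9.11 in the Yap-on organoids, against 3.29, 3.85 and 2.73 on the wild-type arrays (difference 5.82, adjusted p = 0.00057, limma). Ehf, at 10.20, 10.13 and 10.20 in the Yap-on organoids, against 4.27, 6.56 and 4.06 in the wild-type organoids, was higher by 5.22, Elf3 by 4.84 and Gpa33 by 4.24. In fits without wild-type organoid 2, 28 genes were called (22 higher, 6 lower), and without wild-type organoid 1 or 3, or without Yap-on 1 or 2, 8 were, all higher. Against the uninduced hepatocytes 15 rose and 5 fell in the Yap-on organoids, beside 6.28% and 2.54% of all genes. Ehf averaged 10.18 in the Yap-on organoids, against 3.84, 4.06 and 3.62 on the hepatocyte arrays (difference 6.34, adjusted p = 3.3e-05, limma). Vil1 was higher in the Yap-on organoids than in the hepatocytes by 6.22, Elf3 by 4.70 and Gpa33 by 4.22. Without hepatocyte 2, 20 rose and 16 fell.

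The Yap-off organoids gave few calls against either uninduced group. Against the wild-type organoids 0 of the 96 genes were called, where 0.246% of all genes were higher and 0.0602% lower (limma). At an unadjusted p under 0.05 there were 18 higher and 0 lower. Without wild-type organoid 2, 15 rose and 4 fell. Against the hepatocytes Ehf rose, averaging 5.43 in the Yap-off organoids and 3.84 in the hepatocytes (adjusted p = 0.024, limma), and Klf4 fell, at 4.81, 5.22 and 5.29 in the Yap-off organoids, against 7.12, 7.65 and 6.92 in the hepatocytes (adjusted p = 0.036, limma), beside 0.482% of all genes higher and 0.236% lower. Both calls were lost without any 1 of the Yap-off arrays, hepatocyte 1 or hepatocyte 3, and without hepatocyte 2 there were 2 increases and 2 decreases. The Yap-on and Yap-off comparisons with each uninduced group share those arrays.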

How the data were processed

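Amplified total RNA (Nugen Pico WT, per the labels' protocols) was measured on 12 Affymetrix MoGene 1.0 ST arrays, 3 in each group taken from the sample titles. The deposited intensity values were made by the authors with RMA, per the submitters' processing notes. They lie on a linear scale, so log2 was taken here. No label or header names a software version or genome build. Array medians over all rows were 13.6 to 15.6 in intensity, and the number of arrays limits the precision. Detection calls and scan dates were not used here.

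Of 34760 rows, 21640 named 1 gene, 1321 several (left out) and 11799 were not in the probe table. The row with the highest mean was kept per gene, leaving 19937 genes, without a filter on low values. Each comparison was fitted on its own 6 arrays by limma 3.58.1 under R 4.3.3, using lmFit, eBayes and Benjamini-Hochberg adjustment over all genes, since the groups differ in spread. The fit was tested on simulated data.  The members and lists were chosen with earlier results of these data known. Named genes are the members, the 24 largest called changes of the wider list for Yap-on against Yap-off organoids, the 4 largest for each other comparison, called pancreas and family genes, and the 3 nearest genes per member. Alternatives were a further quantile normalization, median centring, the mean of a gene's rows, leaving out the lowest 30% of genes, all 12 arrays, these without hepatocyte 2 and wild-type organoid 2, an intensity trend with robust eBayes, blocking on the replicate number, requiring a 2-fold change and leaving out each array. Same-numbered arrays of Yap-on and Yap-off organoids did not deviate together (r of 0.07, 0.03 and -0.06). Figures were drawn with matplotlib 3.10.9.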

Additional observations from a re-analysis of the deposited data

How the results depend on the processing

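The number of listed gut genes called depended mostly on which arrays entered the fit. Yap-on against Yap-off organoids gave 41 calls, 23 on all 12 arrays, 24 with a 2-fold minimum, 37 with the replicate block and 29 to 47 when each array was left out. Yap-on against wild-type organoids gave 13 calls, 26 on all arrays but hepatocyte 2 and wild-type organoid 2, 8 with the replicate block and 8 to 28 when each array was left out. Yap-off against wild-type organoids gave 0 calls (49 of all genes higher and 12 lower), and 1 with a further quantile normalization, 1 without the lowest 30% of genes, 1 with an intensity trend and robust eBayes, 2 on all 12 arrays, 27 on all arrays but hepatocyte 2 and wild-type organoid 2, 0 with the replicate block, and 0 to 19 when each array was left out. Yap-on against hepatocytes gave 20 calls, 12 with the replicate block and 14 to 36 when each array was left out. Yap-off against hepatocytes gave 2 calls, 9 on all arrays but hepatocyte 2 and wild-type organoid 2, 0 with the replicate block and 0 to 4 when each array was left out. The labels do not pair same-numbered arrays. Over all genes, Yap-on against Yap-off organoids gave 3817 higher and 2395 lower calls, and 1413 and 870 on all 12 arrays, whose fit takes its spread from all 4 groups. With a further quantile normalization or median centring, the differences of the members moved by less than the larger SD of the 2 groups. The exception was Agr2 after a further quantile normalization (0.03 between Yap-on and Yap-off organoids, -0.04 between Yap-on organoids and hepatocytes). Leaving out 1 of 3 arrays cannot move a mean by a full SD, so those fits are no check by this measure. Each member had 1 row, so the mean of a gene's rows changed nothing. The other alternatives were not applied to the members.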

Other observations

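Single uninduced libraries carried some gut genes that others lacked. Cdh17, an intestinal cadherin, was at 7.42, 8.09 and 8.08 in the Yap-on organoids and at 8.95, 8.73 and 7.91 in the Yap-off organoids. It was at 3.12, 9.73 and 2.85 in the wild-type organoids and at 8.63, 2.76 and 8.33 in the hepatocytes. Krt20, a keratin of gastric and intestinal surface cells, was at 9.44, 9.58 and 10.00 in the Yap-on organoids and at 8.92, 9.29 and 8.92 in the Yap-off organoids. Its values were 3.32, 9.13 and 3.46 in the wild-type organoids and 8.73, 3.56 and 8.56 in the hepatocytes. Tspan8, a membrane protein of digestive epithelia, had the same arrangement, at 3.80, 10.83 and 4.74 in the wild-type organoids and at 9.76, 5.11 and 10.19 in the hepatocytes, beside 10.79 to 10.97 in the Yap-on and 10.00 to 10.19 in the Yap-off organoids. These 3 genes, chosen after their values were seen, were thus high in both Yap organoid groups and in the uninduced libraries with high Krt19. Ctse, Prap1 and Pdx1 were low in those uninduced libraries, at 3.47, 3.51 and 3.56 for Ctse in hepatocytes 1 and 3 and wild-type organoid 2. Lgals4 was at 5.79, 6.10 and 4.97 in the same libraries, the highest of its uninduced values. Rbp2 was at 5.66 and 5.96 in hepatocytes 1 and 3, but at 4.17 in wild-type organoid 2, against 3.93 to 4.27 in the other uninduced libraries. Both genes stayed below every Yap-on array there.

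Psca was at 9.83 and 10.32 in hepatocytes 1 and 3 and 6.44 in wild-type organoid 2, against 3.26, 2.84 and 3.48 in the other uninduced libraries. It was lower in the Yap-off organoids (5.09 to 5.76) than in those hepatocyte libraries. These values were not tested.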
